A study of Mus musculus with 8 samples.

Results

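Planar cell polarity and non-canonical Wnt signaling were described here through 10 genes, chosen by name from the gene table of a kidney culture experiment: *Vangl1*, *Vangl2*, *Celsr1*, *Celsr2*, *Prickle1*, *Prickle2*, *Ptk7*, *Ror1*, *Ror2* and *Ryk*. They are 10 of the 30890 genes in the table, and all 10 were among the 16723 genes that had enough counts to be tested. The cultures were kidneys of C57BL/6 mouse embryos at E12.5, kept for 72 h with 5 μM CHIR99021 (4 samples) or with 0.1% DMSO, its solvent, as the control (4 samples). CHIR99021 inhibits the kinase GSK-3 and thereby stabilises β-catenin, so the comparison asks which genes of the β-catenin-independent Wnt branch differed in level when the β-catenin branch was switched on by a drug. The study gave DMSO to the left and CHIR99021 to the right kidney of each embryo, and it left out kidneys in which typical Wnt targets did not respond. A whole cultured kidney holds epithelium, mesenchyme, vessels and blood cells together, so that fewer cells of a type and less RNA per cell cannot be told apart. DMSO replicates 2 and 4 stood apart by liver transcripts, with 1242 and 883 CPM (counts relative to library size, with TMM factors) summed over 5 liver markers against 51.9 and 6.33 CPM in the other controls and at most 7.43 CPM with CHIR99021, so the counts for the 10 genes, and those for the pathway lists that differ, are also given without them.

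Planar cell polarity is the alignment of cells within the plane of a tissue. Its core proteins sit on opposite sides of each cell: Vangl and Prickle proteins on one face, and Frizzled and Dishevelled on the other, joined across the boundary by Celsr cadherins. The same machinery is used when cells intercalate to elongate a tissue, and in kidney tubules it is known for its part in setting tubule width. Ror1, Ror2, Ryk and Ptk7 are single-pass membrane proteins with kinase-like domains. The Ror proteins and Ryk bind Wnt ligands, Wnt5a being the best known for the Ror proteins, and Ptk7 is a co-receptor that acts with the planar polarity proteins.

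Of the 10 genes, 5 rose with CHIR99021 at an adjusted p under 0.05 (*Prickle1*, *Prickle2*, *Ptk7*, *Ror1* and *Ror2*), 0 fell, and 5 did not pass (*Vangl1*, *Vangl2*, *Celsr1*, *Celsr2* and *Ryk*). *Prickle1* rose 3.12-fold and *Ror2* 2.00-fold, and these 2 genes alone also passed an absolute log2 fold change (log2FC, CHIR99021 over DMSO) of 1. Over all tested genes, 48.7% passed at this threshold, 23.7% higher and 25.0% lower, and 13.8% also passed the fold threshold. A share of 5 in 10 called is thus close to that of all genes and is no result about these genes as a set. Their median log2FC was 0.27, against -0.003 over all tested genes, and it is given as a description. The groups did not overlap in any of the 5 genes that rose and overlapped in all 5 that did not pass, while 46.1% of all tested genes had groups that did not overlap. Without DMSO replicates 2 and 4 the counts were again 5 risen and 0 fallen.

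**Figure D1:**
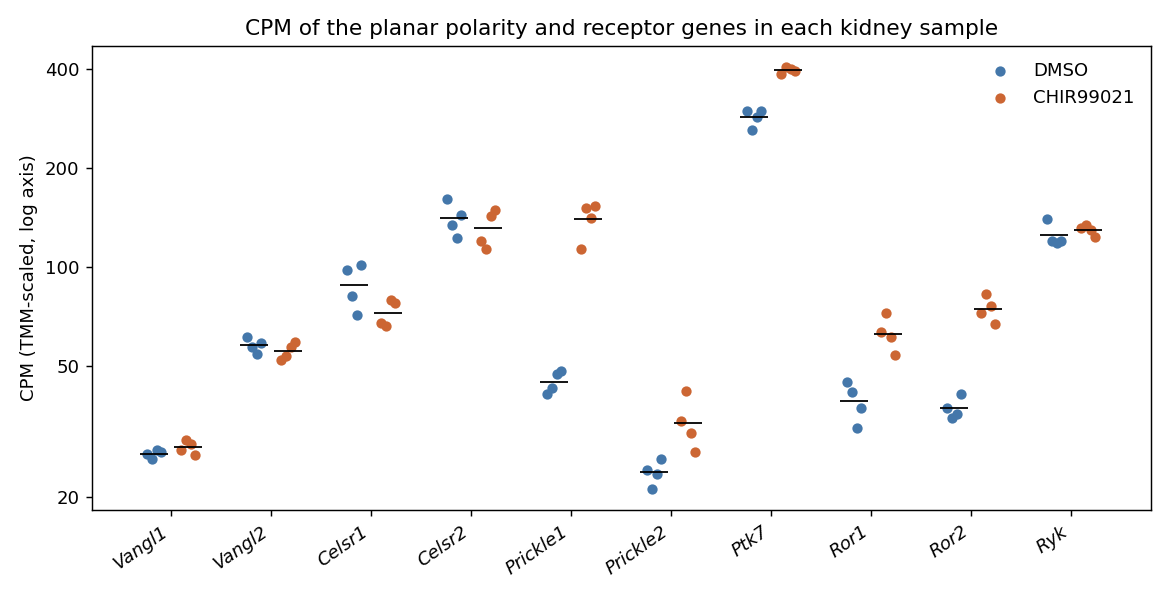
Level of each of the 10 genes in the 8 samples, in CPM on a log axis, with 1 point per sample and a bar for the group mean. The CHIR99021 points lie above all DMSO points for *Prickle1*, *Prickle2*, *Ptk7*, *Ror1* and *Ror2*, and the groups overlap for the other 5 genes.

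The samples also differed in other ways that moved with the treatment. *Axin2*, *Lef1* and *Nkd1*, targets of β-catenin, rose with log2FC values of 3.24, 2.90 and 4.13, which is no independent evidence because kidneys were kept for their response. Of 6 nephron progenitor markers 6 fell (summed level 610.2 to 753 CPM with DMSO and 157 to 173 with CHIR99021), of 6 early nephron markers 5 fell (638 to 915 against 398 to 465), and of 5 endothelial markers 5 fell (360.2 to 505 against 139.6 to 192). Of 7 stromal markers 3 rose and 3 fell, with a sum of 3695 to 4827 against 7202 to 8765 CPM. Without the collagens, a split made after the values were seen, the other 5 summed to 609 to 669 against 829.8 to 891 CPM. Of these 5, named here after their values were seen, *Pdgfra* rose from 193 to 246 CPM with DMSO to 478 to 517 CPM with CHIR99021, *Foxd1*, *Tcf21* and *Meis1* fell, and *Pdgfrb* did not pass, so the higher sum rests on *Pdgfra*. For 3 tested podocyte genes of 5 the counts were 1 risen and 1 fallen, for 8 ureteric genes 0 and 4, for 5 macrophage genes 0 and 5 (41.2 to 149 against 22.9 to 34.2 CPM), and for 5 tested neuron and Schwann cell genes of 6 they were 0 and 1 (30.4 to 60.0 against 11.5 to 76.1 CPM). Liver markers summed to 1.12 to 7.43 CPM with CHIR99021, where *Ttr* had 0 counts. The part of these shifts in cell make-up in the values of the 10 genes was not tested.

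The sequence before the start of 3 of these genes is printed first: *Prickle1* and *Ror2*, which had the largest rises, and *Ryk*, which did not pass the test. The sequences are from RefSeq on GRCm38.p6, 5′ to 3′ on the gene's strand, and each is the 250 bases that end at the base before the annotated start, with every CG dinucleotide in capitals.
Prickle1, chr15:93595903-93596152, minus strand: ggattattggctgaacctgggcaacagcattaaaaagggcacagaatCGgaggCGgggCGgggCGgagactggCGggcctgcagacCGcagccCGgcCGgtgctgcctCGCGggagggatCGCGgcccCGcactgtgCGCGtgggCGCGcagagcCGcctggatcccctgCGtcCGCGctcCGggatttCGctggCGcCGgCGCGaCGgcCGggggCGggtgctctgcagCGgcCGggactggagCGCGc
Ror2, chr13:53286125-53286374, minus strand: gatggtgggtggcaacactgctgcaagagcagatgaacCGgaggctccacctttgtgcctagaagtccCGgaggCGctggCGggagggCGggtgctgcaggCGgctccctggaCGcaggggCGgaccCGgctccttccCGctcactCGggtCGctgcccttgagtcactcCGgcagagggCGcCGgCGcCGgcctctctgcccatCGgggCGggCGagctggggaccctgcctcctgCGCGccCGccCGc
Ryk, chr9:102834670-102834919, plus strand: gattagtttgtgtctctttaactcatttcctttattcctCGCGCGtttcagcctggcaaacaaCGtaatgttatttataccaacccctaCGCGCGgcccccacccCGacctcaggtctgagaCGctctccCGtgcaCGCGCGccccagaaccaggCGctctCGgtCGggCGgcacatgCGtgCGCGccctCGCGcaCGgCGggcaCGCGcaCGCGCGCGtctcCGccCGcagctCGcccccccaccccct
The printed stretches hold 34, 24 and 33 CG dinucleotides for *Prickle1*, *Ror2* and *Ryk*. Over the whole window, which also holds 50 bases after the start, the ratio of observed to chance-predicted CG was 0.957, 0.765 and 1.27, against a median of 0.384 over 32851 mouse promoters. The ratio of *Ryk*, whose groups overlapped, was at the 99.9th percentile. *Celsr2* and *Vangl2*, which did not pass the test either, had ratios of 0.94 and 0.551. The other genes that rose did not share high ratios throughout. *Ptk7* had 0.677, *Ror1* had 0.384, and the 4 starts of *Prickle2* had 0.709, 0.368, 0.253 and 0.25. The start of *Prickle1* shown is the one of 2 with the higher ratio, and the other start, at position 93519520, had a ratio of 0.722 and 16 CG dinucleotides in the 250 bases before it.

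The RefSeq table held 12 such windows for 8 of the 10 genes, with several starts for *Prickle1* and *Prickle2*, and not for *Vangl1* and *Celsr1*. On both strands they were searched for CTTTGA, the core of the motif that TCF and LEF factors, the partners of β-catenin, are known to bind, and for the longer CTTTGAT, which contains it. CTTTGA was in 2 of the 12 windows and CTTTGAT in 1 of them, while 16% of all promoters held CTTTGA and 3.73% held CTTTGAT. Both matches are printed below on the gene's strand with the 6 bases of the match in capitals. The one of *Prickle2* lies 164 bases before one of its 4 starts and continues to CTTTGAT, and the one of *Ror1* lies 205 bases before its start and reads on the other strand.
Prickle2, chr6:92567498-92567557, minus strand: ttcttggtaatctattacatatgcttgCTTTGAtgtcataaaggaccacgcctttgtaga
Ror1, chr4:100095559-100095618, plus strand: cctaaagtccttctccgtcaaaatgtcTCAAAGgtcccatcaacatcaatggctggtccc
Neither *Prickle1* nor *Ror2* held these letters in its windows, which says nothing about binding elsewhere. The matches are a description of letters and were not read as binding sites.

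Levels between genes were compared on FPKM, the authors' values per kilobase of gene and fragments in the sample, which account for length. In the DMSO-treated kidneys *Ptk7* was the highest of the 10 at 70.6 ± 4.51 FPKM (SD, n = 4), above 97.2% of the tested genes. *Ryk* followed at 28.8 ± 2.32. *Celsr2* (12.8 ± 1.42), *Prickle1* (10.8 ± 0.890), *Ror2* (9.20 ± 0.704), *Vangl2* (8.68 ± 0.418), *Celsr1* (8.36 ± 1.31) and *Ror1* (7.09 ± 0.935) formed a middle range in which each gene overlapped its neighbour in the order. *Vangl1* (3.96 ± 0.133) and *Prickle2* (2.88 ± 0.256) were the lowest, and neither overlapped the gene above it.

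With CHIR99021 the order changed around *Prickle1*, which stood at place 4 with DMSO and place 2 with the drug, at 30.7 ± 4.09 FPKM and overlapped *Ryk* (27.3 ± 0.776). *Ptk7* stayed first at 89.0 ± 1.71 and *Ror2* had place 4 at 16.8 ± 1.37, clear of its neighbours on both sides. *Celsr2* (10.9 ± 1.51) and *Ror1* (10.4 ± 1.19) overlapped. They were followed by *Vangl2* (7.59 ± 0.486) and *Celsr1* (6.27 ± 0.614), and at the foot of the order *Vangl1* (3.78 ± 0.150) and *Prickle2* (3.71 ± 0.657) overlapped. FPKM is not scaled for composition and CPM is here, with TMM factors of 1.04 to 1.06 for DMSO and 0.948 to 0.963 for CHIR99021. The group means of *Vangl1* and *Ryk* were lower with CHIR99021 in FPKM and higher in CPM, and neither gene passed the test.

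**Figure D2:**
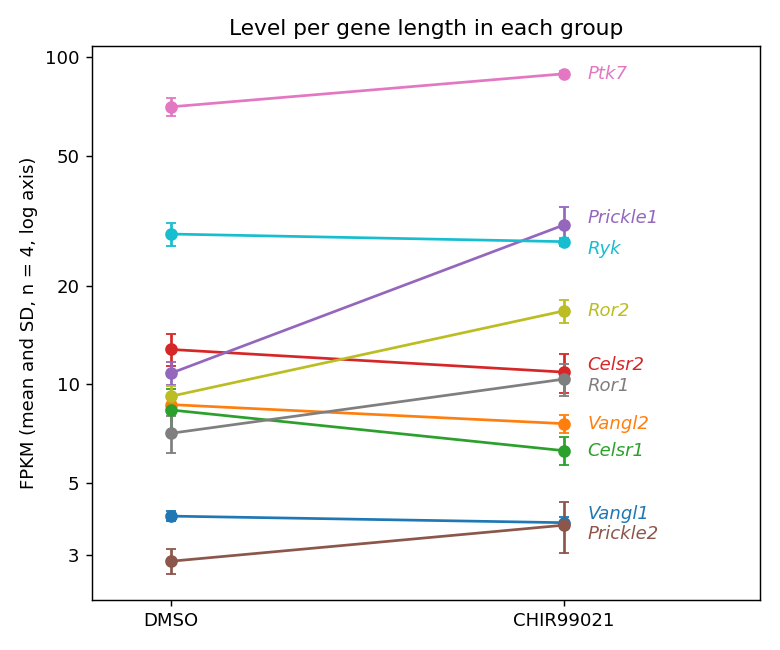
Deposited FPKM of the 10 genes in the DMSO and CHIR99021 groups on a log axis, with a point for the group mean, an error bar for its SD (n = 4) and a line joining both groups of a gene. *Ptk7* is highest in both groups, and *Prickle1* moves from 10.8 to 30.7 FPKM into the range of *Ryk*.

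Vangl1 and Vangl2 are the 4-pass membrane proteins that recruit Prickle to one side of the cell. All 10 genes are protein-coding, and their positions are those of the files, on GRCm38. *Vangl2* (ENSMUSG00000026556, chr1:172000960-172028444, minus strand) was at 61.6, 57.1, 54.4 and 59.0 CPM in DMSO replicates 1 to 4 and at 52.3, 53.8, 57.1 and 59.4 CPM with CHIR99021. The groups overlapped and the treated kidney was higher in 2 of 4 pairs. The log2FC was -0.06 (SE 0.061, adjusted p = 0.446), where the adjusted p of a single gene is that of edgeR's quasi-likelihood test here and in what follows. The 95% interval of the change in level was -12.4 to 5.10%.

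*Vangl1* (ENSMUSG00000027860, chr3:102153583-102204693, minus strand) was at 27.1, 26.0, 27.8 and 27.4 CPM with DMSO and at 27.8, 29.8, 29.1 and 27.0 CPM with CHIR99021, a log2FC of 0.07 (SE 0.063, adjusted p = 0.399). The groups overlapped, the treated kidney was higher in 3 of 4 pairs, and the interval of the change was -4.61 to 15.2%. In limma on log2(FPKM + 1) after quantile normalization the value passed the threshold at 0.13 (adjusted p = 0.0421), as it did with log2(FPKM + 0.1). Its exons share 0.112% of their bases with *Gm16160* on the opposite strand.

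Celsr1 and Celsr2 are large cadherins that hold the polarity complexes of neighbouring cells together. *Celsr1* (ENSMUSG00000016028, chr15:85898758-86033777, minus strand) was at 98.4, 81.7, 71.7 and 102 CPM with DMSO and at 67.5, 66.4, 79.3 and 77.8 CPM with CHIR99021. DMSO replicate 3 lay within the range of the treated samples and the other 3 DMSO replicates lay above it. The log2FC was -0.28 (SE 0.11, adjusted p = 0.0649), the treated kidney was lower in all pairs but pair 3, and the gene did not pass. It passed without DMSO replicate 3 (-0.37, adjusted p = 0.00635), with upper-quartile scaling (-0.33, adjusted p = 0.0353) and with DESeq2 (-0.28, adjusted p = 0.0411), and over the 19 alternatives its adjusted p ran from 0.00635 to 0.206.

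*Celsr2* (ENSMUSG00000068740, chr3:108390851-108415552, minus strand) was at 161, 135, 123 and 144 CPM with DMSO and at 119.9, 114, 144 and 149 CPM with CHIR99021. The groups overlapped over most of their range and 2 of 4 pairs were higher with the drug. The log2FC was -0.10 (SE 0.11, adjusted p = 0.483) and its interval ran from -20.8 to 10.2%. The summed level of 8 ureteric epithelial markers was 698 to 843 CPM with DMSO and 468 to 556 CPM with CHIR99021, and its part in the values of the *Celsr* genes was not tested.

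Prickle1 and Prickle2 are cytoplasmic LIM-domain proteins that bind Vangl. *Prickle1* (ENSMUSG00000036158, chr15:93499114-93595891, minus strand) was at 41.1, 42.9, 47.4 and 48.3 CPM in the DMSO-treated kidneys and at 114, 152, 141 and 154 CPM with CHIR99021. The lowest treated sample, replicate 1, was still far above the highest control. The mean rose from 44.9 ± 3.46 to 140.1 ± 18.4 CPM (log2FC 1.64, SE 0.096, adjusted p = 2.06e-07), and the 95% interval of the rise was 169 to 262%. Of the 16723 tested genes, *Prickle1* had the 408th highest log2FC, and over the alternatives it lay between 1.48 and 1.73.

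*Prickle2* (ENSMUSG00000030020, chr6:92370908-92706155, minus strand) was at 24.2, 21.2, 23.5 and 26.2 CPM with DMSO and at 34.0, 42.0, 31.4 and 27.3 CPM with CHIR99021. The groups did not overlap, but treated replicate 4 lay close to the highest control and treated replicate 2 well above the rest. The log2FC was 0.50 (SE 0.12, adjusted p = 0.00427), or a rise of 18.2 to 69.9%. Over the alternatives the value lay between 0.38, without CHIR99021 replicate 2, and 0.60, and it passed in all 19.

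Ptk7 is a pseudokinase of the planar polarity pathway. *Ptk7* (ENSMUSG00000023972, chr17:46564451-46629504, minus strand) was at 299.9, 262, 287 and 299 CPM with DMSO and at 388, 407, 399.97 and 397 CPM with CHIR99021. The treated samples lay close together and above all controls. The log2FC was 0.47 (SE 0.050, adjusted p = 7.14e-06), a rise of 28.4 to 49.4%. On quantile-normalised values it was smaller, at 0.22 with log2(FPKM + 1) (adjusted p = 0.0151) and with log2(FPKM + 0.1) (adjusted p = 0.0230) and at 0.30 with log2(count + 1) (adjusted p = 0.00447), and it passed under all 19 alternatives.

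Ryk is a pseudokinase that binds Wnt ligands through an extracellular WIF domain. *Ryk* (ENSMUSG00000032547, chr9:102834917-102908305, plus strand) was at 141, 121, 118 and 121 CPM with DMSO and at 131, 135, 129.97 and 124 CPM with CHIR99021. DMSO replicate 1 was above all other samples, and the other 3 controls lay below all treated samples. The log2FC was 0.06 (SE 0.059, adjusted p = 0.458) with an interval of -4.83 to 13.7%, and it was 0.12 without DMSO replicate 1 (adjusted p = 0.0595). It turned to -0.04 in both limma fits on FPKM.

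Ror1 and Ror2 are receptor tyrosine kinases with an extracellular Frizzled-like cysteine-rich domain. *Ror2* (ENSMUSG00000021464, chr13:53109312-53286124, minus strand) was at 37.2, 34.9, 35.9 and 41.3 CPM with DMSO and at 72.5, 82.9, 76.3 and 67.4 CPM with CHIR99021. The groups were far apart, and the mean rose from 37.3 ± 2.82 to 74.8 ± 6.52 CPM (log2FC 1.00, SE 0.075, adjusted p = 3.23e-07). The interval of the rise was 79.2 to 124%. The value lay close to the fold threshold of 1 and ran from 0.90 to 1.05 over the alternatives, so that some of them put it under 1.

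*Ror1* (ENSMUSG00000035305, chr4:100095791-100444765, plus strand) was at 44.8, 41.8, 32.5 and 37.3 CPM with DMSO and at 63.4, 72.5, 61.4 and 54.0 CPM with CHIR99021. All treated samples lay above all controls. The mean rose from 39.1 ± 5.39 to 62.8 ± 7.62 CPM (log2FC 0.68, SE 0.11, adjusted p = 0.000376), a rise of 35.7 to 90.0%. In both groups replicates 1 and 2 were higher than replicates 3 and 4.

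**Figure D3:**
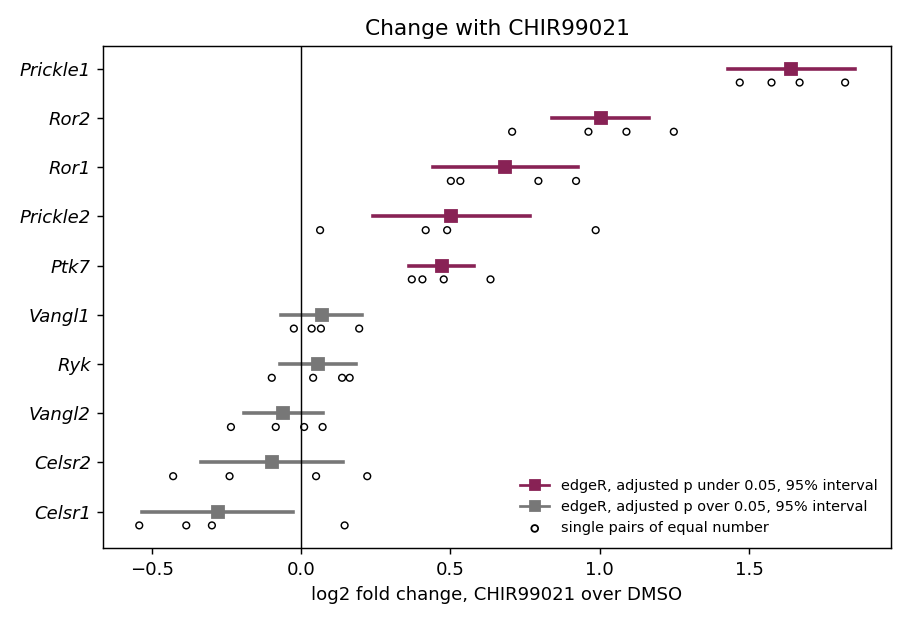
Log2FC of each of the 10 genes, CHIR99021 over DMSO, from edgeR with its 95% interval, and below it, as open circles, the difference within each of the 4 pairs of equal replicate number. The intervals of *Prickle1*, *Ror2*, *Ror1*, *Prickle2* and *Ptk7* lie above 0, and that of *Celsr1*, whose adjusted p of 0.0649 did not pass, lies below it.

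The balance within 5 pairs of related genes was compared as the log2 ratio of their counts inside each sample, which needs no scaling between libraries. An exact two-sided permutation test of 4 against 4 samples was used, whose smallest possible p is 0.0286, with adjustment over the 5 pairs. This test does not use the pairing of left and right kidneys. In it, 3 of these ratios reached the smallest possible p and passed at an adjusted p of 0.0476. The *Vangl* and *Celsr* ratios did not pass at this number of samples. The exact sign-flip test of these ratios, which uses the left and right pairing, cannot pass with 4 samples per group, as given below.

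The ratio of *Prickle1* to *Prickle2* was 0.76, 1.02, 1.01 and 0.88 with DMSO and 1.74, 1.85, 2.17 and 2.49 with CHIR99021 on the log2 scale. It was 1.15 higher with the drug (SE 0.18, exact permutation p = 0.0286, adjusted p = 0.0476), or 2.21-fold, and higher in every treated sample than in any control. In FPKM the sum of both genes went from 13.7 ± 1.05 to 34.4 ± 4.12, and the share of *Prickle1* in it from between 77.1 and 80.1% to between 86.9 and 91.8%.

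The ratio of *Ror1* to *Ror2* moved the other way, since *Ror2* rose more. It was 0.27, 0.26, -0.14 and -0.15 with DMSO and -0.19, -0.19, -0.31 and -0.32 with CHIR99021, a difference of -0.31 (SE 0.12, exact permutation p = 0.0286, adjusted p = 0.0476). The controls fell into replicates 1 and 2 above 0 and replicates 3 and 4 below it, with the latter close to the treated samples. The sum of both genes was 16.3 ± 1.07 FPKM with DMSO and 27.2 ± 2.51 with CHIR99021.

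The ratio of *Ptk7* to *Ryk* ran from 1.09 to 1.31 with DMSO and from 1.56 to 1.68 with CHIR99021. The difference was 0.41 (SE 0.061, exact permutation p = 0.0286, adjusted p = 0.0476), with no overlap. For *Celsr1* to *Celsr2* the difference was -0.17 (SE 0.069, exact permutation p = 0.0571, adjusted p = 0.0714), and for *Vangl1* to *Vangl2* it was 0.13 (SE 0.077, exact permutation p = 0.2, adjusted p = 0.2). With the replicate block, an exact sign-flip test over 4 pairs, no ratio can pass because its smallest p is 0.125. The differences of the first 3 ratios, and also that of *Celsr1*/*Celsr2*, then had an exact sign-flip adjusted p of 0.156. The first 3 ratios still passed the permutation test without any one DMSO replicate. Without any one CHIR99021 replicate none of the 3 did. The exact permutation adjusted p was then 0.0714 for *Prickle1*/*Prickle2* and for *Ptk7*/*Ryk*, and 0.143 to 0.179 for *Ror1*/*Ror2*. For *Prickle1*/*Prickle2* and *Ptk7*/*Ryk* it is the smallest possible p, multiplied by a factor set by how many ratios reach that p. It therefore cannot show dependence on 1 sample. Their differences without any one CHIR99021 replicate were 1.00 to 1.25 and 0.39 to 0.43, against 1.15 and 0.41 with all samples. The *Celsr1*/*Celsr2* ratio passed without DMSO replicate 3 (-0.20, exact permutation adjusted p = 0.0357).

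**Figure D4:**
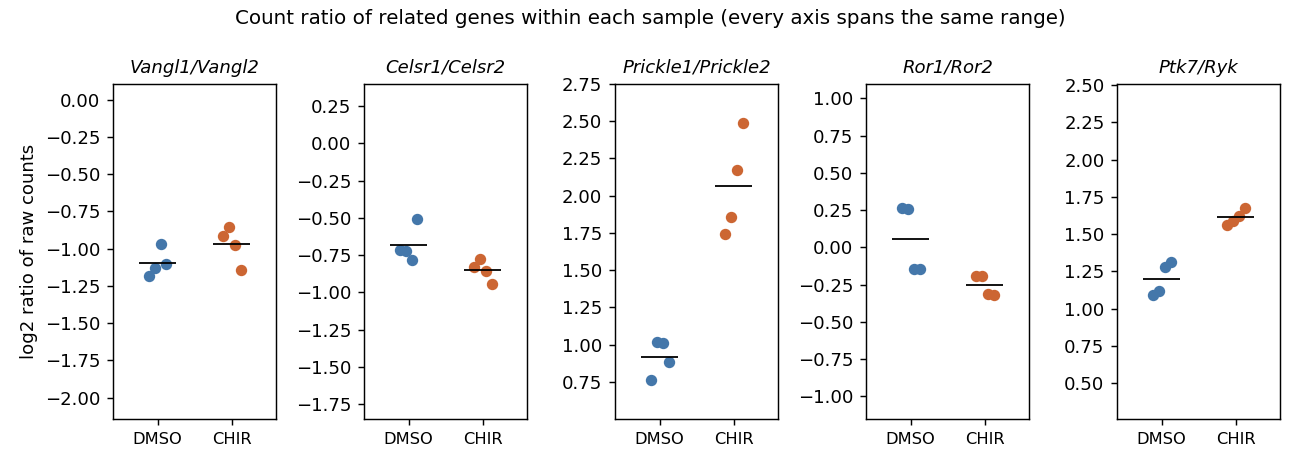
Log2 ratio of counts of the 5 gene pairs in each of the 8 samples, with 1 point per sample and a bar for the group mean. Every panel spans the same range. The *Prickle1*/*Prickle2* and *Ptk7*/*Ryk* ratios are higher and the *Ror1*/*Ror2* ratio is lower in all CHIR99021 samples than in any DMSO sample.

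Other genes of the same pathways were counted from 5 lists at an adjusted p under 0.05 over all tested genes, to be read against the 23.7% higher and 25.0% lower of all genes. Of the ligands of non-canonical Wnt signaling, 2 of 6 rose and 2 fell, with a median log2FC of -0.004. The list is not confined to the β-catenin-independent branch, since the paper presents *Wnt4* within Wnt/β-catenin signaling. *Wnt5a*, the ligand of the Ror receptors, rose from 42.9 ± 2.27 to 144 ± 20.1 CPM (log2FC 1.75, SE 0.090, adjusted p = 3.70e-08). *Wnt4*, which drives nephron formation, rose from 59.4 ± 17.2 to 304 ± 51.0 CPM (2.35, SE 0.24, adjusted p = 0.000193). *Wnt11*, a ligand of the ureteric tip, fell from 19.2 ± 1.73 to 13.6 ± 2.06 CPM (-0.50, SE 0.11, adjusted p = 0.00267). The count of ligands that fell was 1 without any one of DMSO replicates 2, 3 and 4 or CHIR99021 replicates 1, 3 and 4, and without DMSO replicates 2 and 4 together.

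Of the other core planar polarity genes, which include Frizzled, Dishevelled, Dact and further Celsr and Prickle genes, 15 of 16 were tested, and 6 rose and 4 fell (median log2FC 0.07). *Prickle4* had 8 counts over all samples and was not tested. *Fzd6*, a Frizzled receptor of planar polarity, rose from 42.8 ± 2.95 to 92.1 ± 5.45 CPM (log2FC 1.10, SE 0.064, adjusted p = 3.28e-08). *Dact1*, a Dishevelled-binding regulator, rose from 22.5 ± 2.35 to 55.2 ± 4.19 CPM (1.29, SE 0.083, adjusted p = 8.21e-08). *Ankrd6*, the counterpart of fly Diego, fell from 56.6 ± 6.16 to 22.9 ± 1.20 CPM (-1.30, SE 0.083, adjusted p = 7.49e-08). The count of these that fell was 2 with the replicate block, and 2 when any one of DMSO replicate 1 and CHIR99021 replicates 1 and 4, or both of DMSO replicates 2 and 4, were left out. Without both of DMSO replicates 2 and 4 the count that rose was 5.

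In the Fat and Dachsous system, a second set of polarity cadherins, 4 of 7 genes rose and 2 fell (median log2FC 0.33). Without DMSO replicates 2 and 4 together, 3 rose and 2 fell. The count that rose was also 3 without any one of DMSO replicates 2, 3 and 4 or CHIR99021 replicates 2 and 3. It was 3 as well with DESeq2, without a filter and with limma on log2(count + 1). *Fat4*, the receptor that binds Dchs1, rose from 120.3 ± 13.0 to 198 ± 8.28 CPM (log2FC 0.72, SE 0.071, adjusted p = 4.87e-06). *Fat1* rose from 377 ± 40.0 to 519.9 ± 23.5 CPM (0.46, SE 0.070, adjusted p = 0.000144). *Fat3* fell from 68.0 ± 14.7 to 34.0 ± 1.03 CPM (-1.003, SE 0.13, adjusted p = 0.000149). Of the 6 planar polarity effectors at the cilium, 1 rose and 0 fell. It was *Wdpcp*, which went from 6.31 ± 0.642 to 8.43 ± 1.22 CPM (0.42, SE 0.14, adjusted p = 0.0261), and none passed when any one of DMSO replicate 3 and CHIR99021 replicates 1 and 2, or both of DMSO replicates 2 and 4, were left out.

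In the calcium branch 4 of 14 genes rose and 5 fell (median log2FC -0.01). The counts were 5 and 6 with the replicate block, and 3 and 5 without DMSO replicates 2 and 4. Its 3 smallest p-values were falls. *Camk2a*, a calcium and calmodulin-dependent kinase subunit, lay between 8.34 and 12.1 CPM with DMSO and at 1.81 ± 0.302 CPM with CHIR99021 (log2FC -2.46, SE 0.18, adjusted p = 3.30e-07). *Camk2b*, another subunit, went from 10.9 ± 2.02 to 4.13 ± 0.560 CPM (-1.40, SE 0.16, adjusted p = 1.34e-05). *Plcb1*, a phospholipase C, went from 15.8 ± 1.77 to 6.19 ± 1.51 CPM (-1.35, SE 0.17, adjusted p = 2.33e-05).

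**Figure D5:**
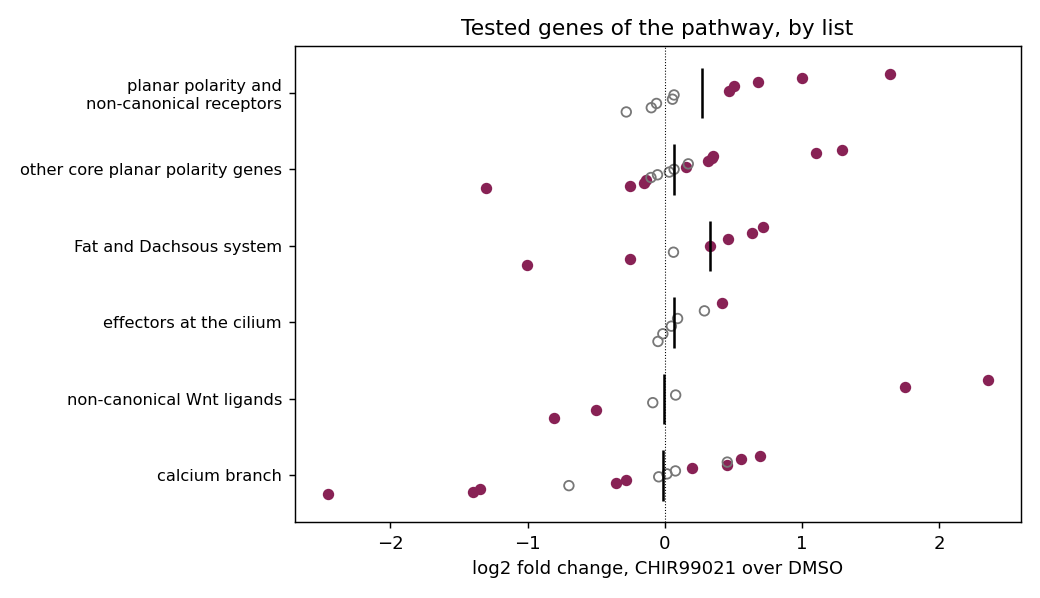
Log2FC, CHIR99021 over DMSO, of every tested gene in the 10 described genes and the 5 pathway lists, with filled points for genes at an adjusted p under 0.05 and a line at each list's median. Genes lie on both sides of 0 in each of the 5 lists, and their medians run from -0.01 to 0.33.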

How the data were processed

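RNA was sequenced from 8 cultured mouse kidneys, 4 per group, grouped by the treatment in their labels. Per the labels and the paper, the authors used HISAT2 2.0.5 for alignment, with GRCm38 as the genome, and featureCounts for gene counts. The deposited counts are whole numbers, and the FPKM values were computed by the authors. Strand use in counting was not given in those sources. The table's columns of the authors' own comparison (mean, fold, p-values) were not used. Counts summed to 14599082 to 17751992 per sample, and each of the 10 genes had at least 371 counts in every sample.

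In R 4.3.3, filterByExpr (minimum count 10, minimum total 15) kept 16723 of 30890 genes. Levels are CPM after TMM scaling, as mean ± SD over n = 4. Groups were compared with edgeR 4.0.16 (quasi-likelihood test, robust), with group as the only term and Benjamini-Hochberg adjustment over all tested genes. Limma 3.58.1 and DESeq2 1.42.0 served as alternatives, as did other scalings and filters, each sample left out in turn, and DMSO replicates 2 and 4 left out together. The procedure was tested on simulated data with unpaired samples and few changed genes, which does not check the scaling or the pairing in the present samples.

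The paper pairs left and right kidneys of an embryo. Deviations from the group means correlated at 0.111 to 0.346 across genes for samples of equal number and at -0.180 to 0.0766 otherwise. Samples of equal number were therefore taken as pairs in the pair counts, the replicate block and the sign-flip test. The main edgeR fit, with its SE, intervals and adjusted p, has no pair term. The labels do not say that cultures were separate beyond this, and p-values measure the spread between these samples. Exon overlap was checked against GENCODE M21, and 50-letter stretches of exons occurred in other genes for 0.371% of *Vangl1*, 0.0996% of *Vangl2*, 0.0186% of *Ptk7* and 0% of the other genes.

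The 10 genes and the lists were chosen with earlier results of these data known. One further pathway list is not reported here. Genes of the 5 pathway lists are named when they have one of the 3 smallest p-values of a list at an adjusted p under 0.05.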

Additional observations from a re-analysis of the deposited data

Results flagged for a closer look

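*Ryk* in the DMSO group had 1 sample far from the others. Replicate 1 was at 141 CPM and the other 3 at 118 to 121 CPM, so that the gap was 0.894 of the group's range, above Dixon's 95% critical value for 4 samples. Over 30 groups of 4 values checked (10 genes and 5 ratios in 2 groups), this was the 1 above the limit, and chance alone puts about 1 in 20 groups above it.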

How the results depend on the processing

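Over 19 alternatives the count of described genes that rose was 5, or 6 with limma on FPKM, which adds *Vangl1*. The count that fell was 0, and 1 (*Celsr1*) with upper-quartile scaling, with DESeq2 and when DMSO replicate 3 was left out (range 0 to 1 over samples left out in turn). *Ryk* did not pass anywhere, and its log2 fold change reversed to -0.0430 with limma on log2(FPKM + 1), -0.0443 with log2(FPKM + 0.1), -0.00403 with log2(count + 1) and -0.000749 without DMSO replicates 2 and 4. The replicate block in edgeR changed no call of the 10 genes. The exact sign-flip test with the replicate block, which cannot pass at 4 pairs, left the paralogue ratios at 1.15 for *Prickle*, -0.31 for *Ror* and 0.41 for *Ptk7*/*Ryk*. Leaving out 1 sample gave 1.00 to 1.25, -0.38 to -0.24 and 0.38 to 0.45, and -0.20 to -0.11 for *Celsr1*/*Celsr2*, which passed at -0.20 without DMSO replicate 3.

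Other core genes that fell were 2 with the replicate block, with DESeq2, without a filter and without DMSO replicates 2 and 4, and 2 to 4 with 1 sample left out. Cilium effectors that rose were 2 in both FPKM fits, 0 without DMSO replicates 2 and 4, and 0 to 1 with 1 sample left out. Ligands that fell were 1 without a filter, in the 3 limma fits on log values and without DMSO replicates 2 and 4, and 1 to 2 with 1 sample left out. The cause of these shifts was not tested.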
